A study of Mus musculus with 53 samples.

Results

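Agrp, Npy, Pomc, Cartpt and Tbx3 were followed in laser-captured arcuate nucleus (ARC) of male mice, as 5 of the 53379 genes counted. Their symbols were matched from the Ensembl identifiers of the count table, and each was read in CPM, its count relative to the total of the library, scaled between libraries by TMM. All mice were C57BL/6, aged 13 to 14 weeks by the labels. Nnat+/-p mice carried a germline null allele of the imprinted gene Nnat, inherited from the father and missing in every cell type, and were compared with Nnat+/+ mice. On chow, the ARC libraries used came from 2 Nnat+/+ males of 31.4 to 33.5 g, 4 libraries of non-obese Nnat+/-p males of 27.4 to 34.3 g and 4 obese Nnat+/-p males of 38.8 to 46.5 g. On a diet with 45% fat (HFD), 6 Nnat+/+ males of 37.4 to 43.9 g and 4 Nnat+/-p males of 38.2 to 43.1 g were used. The HFD mice were a cohort of their own, so that diet and cohort cannot be told apart. The 20 ARC libraries held 1479953 to 18058097 counts. The paraventricular nucleus (PVN) served as contrast, in 19 male libraries of the same groups and in 10 chow-fed females of 20.4 to 33.35 g, of which 4 were Nnat+/+, 3 non-obese and 3 obese Nnat+/-p. The labels do not say whether libraries of 1 group were separate litters or cages.

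The labels were checked against the genes that define each group and nucleus. Nnat lay between 0.268 and 4.52 CPM in the 12 Nnat+/-p ARC libraries and between 230 and 477 CPM in the 8 Nnat+/+ ones. The 5 PVN markers Avp, Oxt, Sim1, Crh and Trh summed to 7.49 to 60.8 CPM in the ARC and, outside 1 library, to at least 157 CPM in the male PVN. That library, Nnat+/+ chow PVN replicate 15, held 98.4 CPM of Pomc and 55.4 CPM of Nr5a1, a gene of the ventromedial hypothalamus (VMH), against 0.163 CPM of Avp, on the plain CPM scale. The ARC library of the same labelled weight, replicate 35, held 0 counts of Pomc and 203 CPM of Avp in 271324 counts, and was left out for its depth. In Nnat+/+ HFD PVN replicate 24, Avp was at 0.896 CPM beside 25.8 CPM of Pmch and 68.4 CPM of Cartpt. PVN results resting on replicates 15 and 24 are given with and without them. Replicates 39 and 40, both non-obese Nnat+/-p ARC, share 1 labelled weight of 34.3 g and are not known to be separate mice, so that this group may hold fewer mice than libraries. The weight of ARC replicate 51 (Nnat+/-p HFD, 42.9 g) is that of a Nnat+/+ PVN library, and the weight of ARC replicate 44 (Nnat+/+ HFD, 43.9 g) is that of a Nnat+/-p PVN library.

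The ARC holds 2 opposed sets of feeding neurons. One set makes agouti-related peptide (AgRP) together with neuropeptide Y, which promote feeding, and AgRP blocks the melanocortin receptors Mc3r and Mc4r. The other set makes pro-opiomelanocortin, which is cut by Pcsk1 and Pcsk2 into melanocortins that activate these receptors and restrain feeding, and many of its cells also make the peptide encoded by Cartpt. Leptin and insulin act on both sets, and low leptin raises Agrp and Npy. Tbx3 encodes a T-box transcription factor made by both neuron sets and by tanycytes, the glia lining the floor of the third ventricle. Cartpt is also transcribed in other hypothalamic neurons, and Pomc in the anterior pituitary.

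The genes lie on 5 chromosomes of GRCm38. Agrp (ENSMUSG00000005705) is annotated at chr8:105566698-105637393 on the minus strand, a span that takes in other genes and shares exon sequence with Gm5914 and Ctcf. Npy (ENSMUSG00000029819) lies at chr6:49822710-49829507 on the plus strand and Pomc (ENSMUSG00000020660) at chr12:3954951-3960642 on the plus strand. Cartpt (ENSMUSG00000021647) lies at chr13:99898489-99901091 on the minus strand. Tbx3 (ENSMUSG00000018604) lies at chr5:119670669-119684724 on the plus strand, and an exon of it overlaps the antisense gene Tbx3os1, which had 281 counts over all libraries. Whether reads were counted by strand is not given in the sources used here, so reads of Tbx3 and Tbx3os1 in the overlap cannot be told apart.

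Since 3 of the 5 genes had an entry in RefSeq's table of promoter windows for GRCm38.p6, the 250 bases before their starts were searched for the core sequence bound by T-box factors, GGTGTG, on both strands. It was present in all 3, and in 16.3% of the 32851 windows of the table. The windows of Npy (chr6:49822460-49822709, plus strand) and Pomc (chr12:3954695-3954944, plus strand) are shown 5′ to 3′ because both hold the core on the strand of the gene. GGTGTG and, in Pomc, the TATAAA box are in capitals. For Cartpt, whose annotated gene extends further upstream, 30 bases are shown (chr13:99900723-99900752, minus strand), with the core on the other strand reading CACACC.
Npy: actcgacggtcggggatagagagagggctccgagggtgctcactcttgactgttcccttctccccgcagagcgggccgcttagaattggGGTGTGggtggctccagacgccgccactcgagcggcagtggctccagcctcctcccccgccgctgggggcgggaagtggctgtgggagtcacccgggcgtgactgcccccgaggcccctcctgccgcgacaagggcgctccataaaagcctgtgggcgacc
Pomc: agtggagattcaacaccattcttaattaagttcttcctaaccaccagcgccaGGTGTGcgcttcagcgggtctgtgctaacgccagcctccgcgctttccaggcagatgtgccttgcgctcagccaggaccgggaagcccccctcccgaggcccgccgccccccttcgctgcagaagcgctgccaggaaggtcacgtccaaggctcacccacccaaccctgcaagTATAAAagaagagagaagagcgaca
Cartpt: cgggctctcctcCACACCcccgtccttctt

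The core began 161 bases before the start of Npy and 198 bases before that of Pomc, and 57 bases before that of Cartpt. A second stretch of Cartpt (chr13:99900777-99900806, minus strand) is shown because it holds the only palindromic cyclic AMP response element, TGACGTCA (capitals), in the 3 windows, which 1.55% of all windows hold.
Cartpt: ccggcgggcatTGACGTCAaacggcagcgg

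TATAAA stood 25 bases before the start of Pomc and in 12.4% of all windows. The STAT core TTCNNNGAA (7.02% of windows) and the FOXO core GTAAACA (3.17%) were in none of the 3 on either strand. These matches describe letters in a window and say nothing of binding.

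All 5 genes were detected in the ARC at levels that varied widely between libraries. Over the 20 ARC libraries, Pomc ran from 2.01 to 351 CPM with a median of 91.5, Cartpt from 20.6 to 157 CPM with a median of 60.0, and Tbx3 from 4.55 to 78.4 CPM with a median of 26.1. Npy ran from 3.48 to 89.5 CPM with a median of 13.4, and Agrp from 0 to 26.7 CPM with a median of 3.70. Agrp had the fewest reads, with 0 counts in 2 non-obese Nnat+/-p libraries and at most 101 counts in any ARC library, and its values carry the largest counting error. Levels were compared between genes only per kb of exon sequence. In obese Nnat+/-p mice on chow, Pomc was at 67.9 ± 17.6 CPM per kb (SD, n = 4), Cartpt at 37.0 ± 9.58 and Npy at 24.0 ± 8.80, while Agrp at 3.97 ± 2.20 and Tbx3 at 2.77 ± 0.323 did not differ beyond their spread. In Nnat+/+ mice on HFD, Pomc (94.1 ± 88.7 CPM per kb, SD, n = 6), Cartpt (90.9 ± 20.4) and Npy (50.0 ± 53.4) overlapped in their spread, and Agrp (8.96 ± 9.49) and Tbx3 (7.03 ± 2.65) again stood lowest.

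**Figure D1:**
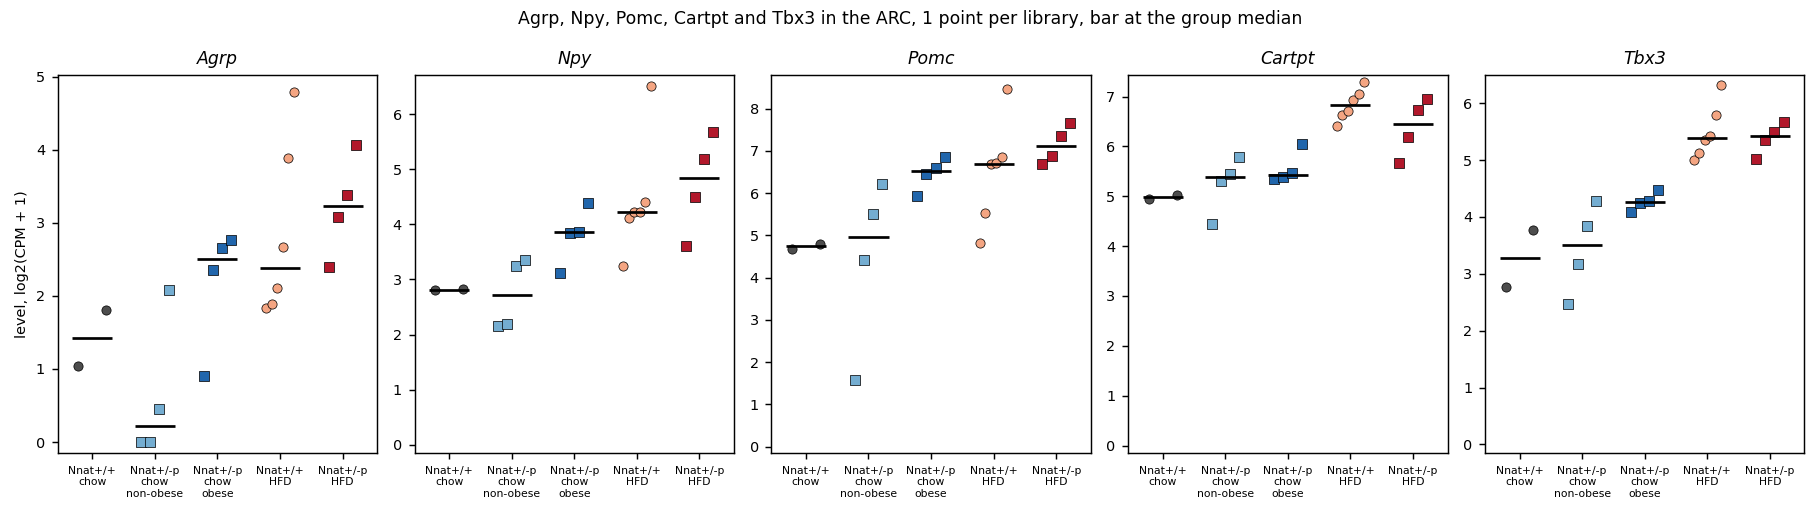
Level of each gene in the 20 ARC libraries, as log2(CPM + 1) on the y axis, for the 5 groups of mice on the x axis, with 1 point per library and a bar at the median of the plotted values. For Tbx3 the 10 HFD libraries stand above the 10 chow libraries, with every Nnat+/+ HFD library at 31.1 CPM or more against at most 12.7 CPM in Nnat+/+ chow.

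In 15 males, 1 ARC and 1 PVN library could be matched by a genotype, diet and weight that no other mouse shared. Npy ran from 3.48 to 89.5 CPM with a median of 13.5 in their ARC and from 0 to 4.54 CPM with a median of 1.07 in their PVN. Pomc ran from 2.01 to 351 CPM (median 96.3) in the ARC and from 0.326 to 12.8 CPM (median 1.82) in the PVN. Agrp had a median of 4.09 CPM in the ARC and of 0 in the PVN, where no matched library passed 0.948 CPM. Cartpt and Tbx3 were higher in the ARC too. In the PVN, Cartpt ran from 7.07 to 33.8 CPM (median 19.1) and Tbx3 from 0.807 to 15.0 CPM (median 5.25). Npy, Cartpt and Tbx3 were higher in the ARC of 15 of 15 mice, and Agrp and Pomc in 14 of 15.

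With the mouse as a block, the ARC exceeded the PVN by 6.35 ± 0.66 (log2, SE) for Agrp, 5.30 ± 0.33 for Pomc, 4.41 ± 0.33 for Npy, 2.59 ± 0.26 for Tbx3 and 2.26 ± 0.20 for Cartpt. All 5 passed the quasi-likelihood test of edgeR, adjusted by Benjamini-Hochberg, at an adjusted p under 0.25, the threshold of all edgeR and DESeq2 tests, here termed called, with adjusted p from 3.96e-17 (Pomc) to 3.21e-10 (Agrp). Of the 19460 genes tested, 30.1% were called in either direction and 14% as higher in the ARC. Other genes of ARC neurons were higher too, 8 of 9 tested being called higher, among them Tac2 of kisspeptin neurons (6.07 ± 0.54) and Crabp1 (4.37 ± 0.53). All 5 PVN markers were lower, while Nr5a1 and Fezf1 of the neighbouring VMH were higher in the ARC libraries, by 3.82 ± 0.41 and 2.61 ± 0.36. Pmch of the lateral hypothalamic area (LHA) was higher by 4.89 ± 0.60. Of 4 pituitary genes, 3 were called higher in the ARC, Cga by 3.96 ± 1.24, Tshb by 3.11 ± 1.20 and Tbx19 by 4.12 ± 1.14, and the 4 summed to at most 10.3 CPM in any ARC library. Their part in the level of Pomc was not tested. Genes of glia differed as well, Mbp and Mobp of oligodendrocytes being higher by 0.65 ± 0.12 and 0.72 ± 0.13. Among genes known from AgRP neurons, Acvr1c, Gpr83, Bsx and Corin were called higher and Otp and Calcr lower in the ARC. In bulk tissue, fewer cells of a type and less RNA per cell cannot be told apart. The ARC libraries and the male PVN libraries stood in separate count tables. Nucleus and any batch tied to the tables therefore cannot be told apart either.

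**Figure D2:**
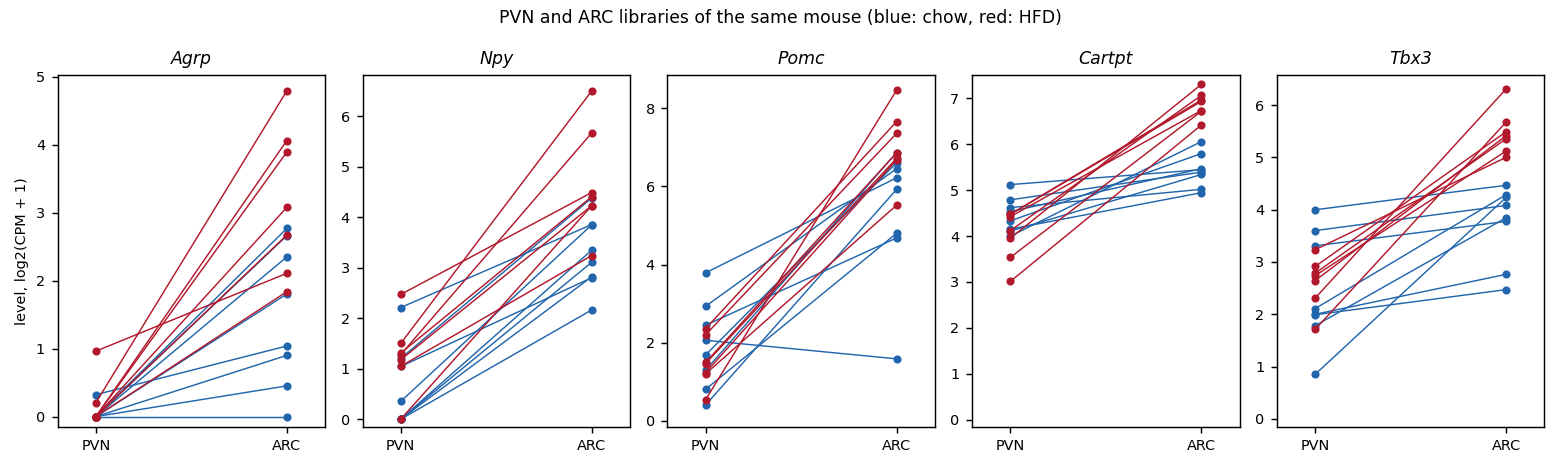
Level of each gene, as log2(CPM + 1) on the y axis, in the PVN and ARC libraries of the 15 matched males, joined by a line per mouse, in blue for chow and red for HFD. Lines rise from PVN to ARC in 15 of 15 mice for Npy, Cartpt and Tbx3 and in 14 of 15 for Agrp and Pomc.

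In the female PVN, medians were 0 CPM for Agrp, 0.395 for Npy, 2.79 for Pomc, 28.1 for Cartpt and 8.61 for Tbx3, beside those of the 19 male PVN libraries (0, 1.26, 2.29, 20.4 and 5.72 CPM). Values for the sexes come from separately normalised tables and were not tested against each other. A single female library, Nnat+/+ replicate 2, held 28.7 CPM of Agrp, from 158 counts, with Npy at 0.

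Cartpt and Tbx3 stood higher in the ARC on HFD than on chow. In Nnat+/+ mice, Cartpt was at 29.8 and 31.4 CPM in the 2 chow libraries and ran from 84.3 to 157 CPM in the 6 HFD libraries (median 112). Tbx3 was at 5.79 and 12.7 CPM on chow and ran from 31.1 to 78.4 CPM on HFD (median 40.8). The groups did not overlap for either gene, and each HFD library stood well above the highest on chow.

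Npy was at 5.97 and 6.06 CPM on chow and ran from 8.45 to 89.5 CPM on HFD (median 17.7). Pomc was at 24.6 and 26.9 CPM on chow and from 27.1 to 351 CPM on HFD (median 103). Agrp was at 1.05 and 2.49 CPM on chow and from 2.57 to 26.7 CPM on HFD (median 4.33). The HFD libraries lay above both chow libraries for all 5 genes, but for Agrp and Pomc the groups nearly touched, and in 7.15% of the 15753 genes tested all HFD libraries lay above both chow libraries. Nnat+/+ HFD replicate 46 was the highest of its group for all 5 genes.

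Cartpt rose by 1.91 ± 0.33 (log2, SE; adjusted p = 0.0143) and Tbx3 by 2.30 ± 0.41 (adjusted p = 0.0169), the third and the fourth smallest p of all genes tested. In this comparison 1.16% of genes were called, and 0.495% as higher on HFD. Npy (2.20 ± 0.69, adjusted p = 0.263), Pomc (2.25 ± 0.75, adjusted p = 0.298) and Agrp (2.31 ± 1.05, adjusted p = 0.536) had wider errors and were not called by the quasi-likelihood test of edgeR, Benjamini-Hochberg adjusted,. DESeq2 called 4 of the 5, without Agrp. Without HFD replicate 46 the differences were 1.40 for Npy, 1.61 for Pomc and 1.62 for Agrp, beside 1.81 for Cartpt and 2.09 for Tbx3, and without chow replicate 34 those of Tbx3 and Agrp were 3.00 and 3.08. The calls of Cartpt and Tbx3 rest on chow replicate 33, 1 of only 2: without it the adjusted p was 0.332 for Cartpt (1.87) and 0.555 for Tbx3 (1.84). They held without any other library left out and under every other setting tried.

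Of 9 genes of other ARC neurons tested, Crabp1 (3.49 ± 0.73) and Sst (1.28 ± 0.35) were called higher on HFD and none lower, 7 had a positive fold change, and the list's median log2 fold change was 1.36 beside 0.02 over all genes. Among receptors, Npy2r, an autoreceptor of Npy neurons, rose by 1.90 ± 0.44, from 7.90 and 9.46 CPM on chow to 18.0 to 48.0 CPM on HFD, and the median of the 8 was 1.13. Among leptin and insulin signalling genes, Stat3, the transcription factor activated by the leptin receptor, rose by 0.84 ± 0.21, and among 10 genes of peptide processing, Pcsk1 rose by 0.76 ± 0.22. Of 7 genes of AgRP neurons and 6 of POMC neurons none was called, with medians of 1.05 and 0.64. Otp (1.43 ± 0.45, adjusted p = 0.266) and Calcr (1.40 ± 0.47, adjusted p = 0.301) came nearest in the first list, and Isl1 (0.79 ± 0.40, adjusted p = 0.606) and Anxa2 (1.70 ± 0.91, adjusted p = 0.649) in the second.

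Markers of neighbouring tissue moved with the same comparison. The VMH genes Nr5a1 and Fezf1 summed to 46.3 and 80.9 CPM in the 2 Nnat+/+ chow libraries and to 2.11 to 36.7 CPM (median 9.29) in the 6 HFD libraries, and Fezf1 fell by 2.25 on the log2 scale (SE 0.63). The LHA genes Pmch and Hcrt summed to 30.6 and 97.7 CPM on chow and to 0.264 to 37.4 CPM on HFD. Among genes of oligodendrocytes, Mbp fell by 1.09 (SE 0.24) and Mobp fell by 1.25 (SE 0.27) on the log2 scale on HFD, and both were called. Of 4 astrocyte genes, Gfap rose by 1.90 ± 0.56 and Agt fell by 0.81 (SE 0.22). Of 5 genes of tanycytes, a cell type that makes Tbx3, Col23a1 rose by 2.94 ± 0.72 and the other 4 were not called, and the 7 listed summed to 14.2 and 26.6 CPM on chow and 25.7 to 68.9 CPM on HFD. The 4 pituitary genes, Cga, Tshb, Pitx1 and Tbx19, summed to no more than 4.98 CPM in any Nnat+/+ ARC library. The part of captured area and tissue makeup in the rise of Cartpt and Tbx3 was not tested.

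**Figure D3:**
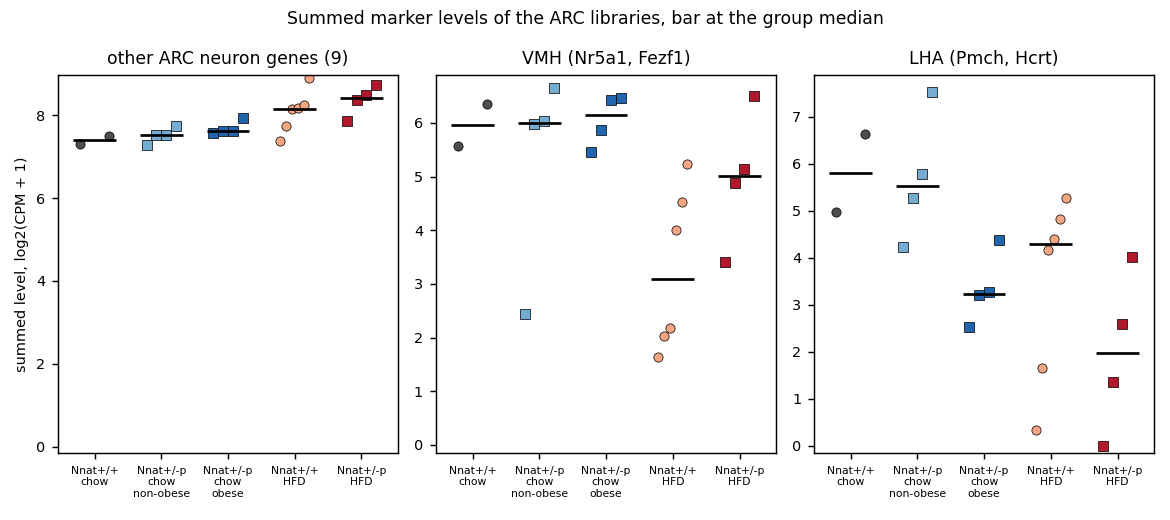
Summed level of 3 marker lists, as log2(CPM + 1) on the y axis, in the 20 ARC libraries by group, with 1 point per library and a bar at the median of the plotted values. Median sums of the VMH genes were 63.6 CPM in Nnat+/+ chow and 9.29 CPM in Nnat+/+ HFD, while those of 9 other ARC neuron genes were 168 and 285 CPM.

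In Nnat+/-p mice the HFD group was set against each chow weight class, so that both comparisons share the 4 HFD libraries. On HFD, Agrp was at 4.29, 7.44, 9.37 and 15.7 CPM, Npy at 11.2, 21.4, 35.5 and 49.9 CPM, and Pomc at 102, 117, 163 and 201 CPM. Cartpt was at 49.6, 71.5, 105 and 124 CPM and Tbx3 at 31.5, 39.8, 44.0 and 50.1 CPM. Replicate 50 was the highest of the 4 for all 5 genes, and replicate 53 the lowest.

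In non-obese Nnat+/-p mice on chow, Agrp was at 0, 0, 0.367 and 3.21 CPM, Npy at 3.48, 3.58, 8.41 and 9.17 CPM, and Pomc at 2.01, 20.2, 44.2 and 73.6 CPM. Cartpt was at 20.6, 38.7, 42.5 and 54.5 CPM and Tbx3 at 4.55, 8.03, 13.4 and 18.5 CPM. All HFD libraries lay above all non-obese chow libraries for Agrp, Npy, Pomc and Tbx3, 4 of 5, where 2.09% of all genes did so, and Cartpt overlapped by the lowest HFD library alone. The 5 genes were all called higher on HFD, against 2.44% of genes called in either direction and 1.74% called higher. Tbx3 rose by 2.00 ± 0.32 (log2, SE; adjusted p = 0.00270), Cartpt by 1.16 ± 0.26 (adjusted p = 0.0391), Npy by 2.32 ± 0.55 (adjusted p = 0.0538), Agrp by 3.05 ± 0.85 (adjusted p = 0.135) and Pomc by 2.03 ± 0.57 (adjusted p = 0.140). Only Tbx3 stayed called whichever library was left out. Without replicate 50 the other 4 were lost, at adjusted p of 0.454 (Agrp), 0.338 (Npy), 0.447 (Pomc) and 0.312 (Cartpt). Pomc was lost too without replicate 39 (adjusted p = 0.271) or replicate 40 (adjusted p = 0.258). The difference of Agrp ran from 2.59 to 5.83, the highest without replicate 40, and that of Pomc from 1.62 to 2.69, the highest without replicate 38.

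In obese Nnat+/-p mice on chow, Tbx3 was at 15.9, 17.8, 18.5 and 21.1 CPM, and Cartpt at 39.5, 40.9, 43.1 and 65.5 CPM. Agrp was at 0.865, 4.09, 5.32 and 5.81 CPM, Npy at 7.62, 13.4, 13.5 and 19.8 CPM, and Pomc at 59.7, 86.7, 96.3 and 115 CPM. Against these, the HFD libraries of Tbx3 stood clear, 1 of 5 genes where 2.2% of all genes did so, and the other 4 genes overlapped. Tbx3 rose by 1.16 ± 0.30 (log2, SE; adjusted p = 0.129) and Cartpt by 0.88 ± 0.25 (adjusted p = 0.195), while Npy (1.10 ± 0.50, adjusted p = 0.526), Agrp (1.17 ± 0.76, adjusted p = 0.704) and Pomc (0.69 ± 0.55, adjusted p = 0.768) were not called by the quasi-likelihood test of edgeR, Benjamini-Hochberg adjusted,. Here 1.27% of genes were called, and 1.06% as higher. The call of Cartpt held in only 1 of 8 fits with a library left out, and that of Tbx3 in 4 of 8, being lost without replicate 41 (adjusted p = 0.302), 42 (0.463), 50 (0.574) or 51 (0.256). Cartpt was lost at adjusted p of 0.266 to 0.746 without any of these or replicates 36, 37 and 52.

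Otp, a homeobox gene of AgRP neurons, was called higher on HFD against both chow classes of Nnat+/-p mice. It rose by 2.26 ± 0.37 against non-obese and 1.29 ± 0.35 against obese mice, and Sst was called higher by 1.52 ± 0.29 and 1.14 ± 0.28. Otp was also called lower in the ARC than in the PVN, so it is not particular to AgRP neurons here. Against non-obese mice, Ghrh, Slc6a3, Crabp1, Npy2r and Stat3 were also called higher, and no gene of the POMC neuron list was called in either comparison. Among markers of neighbouring nuclei, Oxt was called higher on HFD in both comparisons, running from 9.37 to 14.4 CPM on HFD and no higher than 1.18 CPM in the 8 chow libraries. Avp was called higher, and Pmch lower, against the non-obese mice. Whether PVN or LHA tissue in these libraries bears on the 5 genes or on Otp was not tested.

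**Figure D4:**
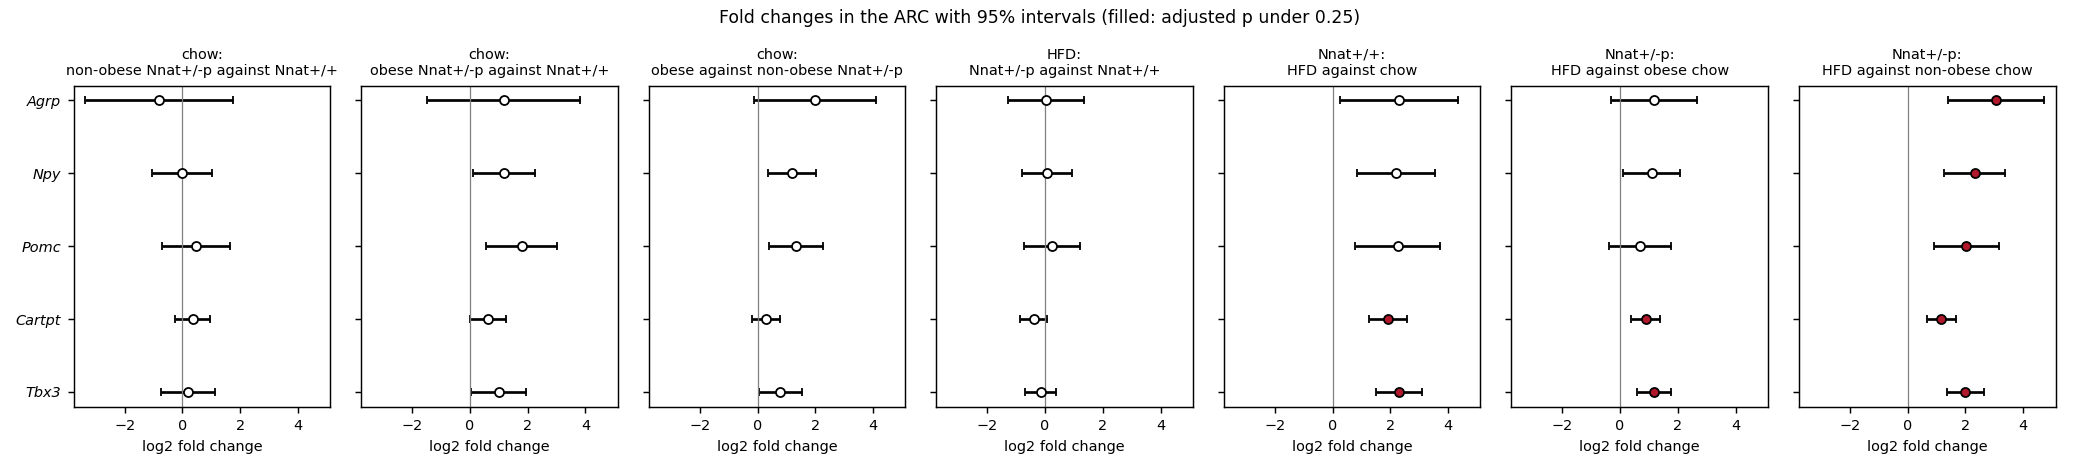
Log2 fold change of each gene (x axis) in 7 ARC comparisons, 1 panel each, with 95% intervals, filled where the adjusted p is under 0.25. The 9 filled points are Cartpt and Tbx3 in Nnat+/+ mice, all 5 genes in Nnat+/-p HFD against non-obese chow, and Cartpt and Tbx3 against obese chow.

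On chow, obese Nnat+/-p mice were compared with Nnat+/+ mice. The 4 obese libraries lay above both Nnat+/+ libraries for Npy, Pomc, Cartpt and Tbx3, and not for Agrp, where replicate 37 at 0.865 CPM lay below both. In 5.84% of all genes the groups separated in this way. Pomc differed by 1.80 ± 0.63 (log2, SE), Npy by 1.17 ± 0.55, Tbx3 by 0.99 ± 0.48, Cartpt by 0.63 ± 0.31 and Agrp by 1.18 ± 1.35, and Pomc and Npy had an unadjusted p under 0.05. Without Nnat+/+ replicate 33 the difference was 0.53 for Tbx3 and 0.69 for Agrp, and without replicate 34 it was 1.66 and 1.91. None passed the quasi-likelihood test of edgeR, Benjamini-Hochberg adjusted (adjusted p = 1 for all 5), and DESeq2 called none of them. Only 3 of 14658 genes were called (0.0205%), and 380 had an unadjusted p under 0.05. With all genes of a total count over 1, or with only these groups in the fit, Pomc was called.

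Within Nnat+/-p mice on chow, the weight classes overlapped for all 5 genes, where 1.32% of genes had every obese library above every non-obese one. The difference, obese minus non-obese, was 1.33 ± 0.47 (log2, SE) for Pomc, 1.19 ± 0.43 for Npy, 0.79 ± 0.38 for Tbx3, 1.99 ± 1.08 for Agrp and 0.28 ± 0.25 for Cartpt, with an unadjusted p under 0.05 for Pomc, Npy and Tbx3. With 1 library left out at a time, Agrp ran from 1.55 to 4.64, the highest without replicate 40. Pomc ran from 0.916 to 1.99, the highest without replicate 38. None was called by the quasi-likelihood test of edgeR, Benjamini-Hochberg adjusted (adjusted p = 0.999) or by DESeq2. A single gene was called (0.00682%), with 623 at an unadjusted p under 0.05. That gene was Pmch, the melanin-concentrating hormone gene of the LHA, lower by 2.82 on the log2 scale in obese mice, at 3.23 to 19.9 CPM against 17.7 to 170 CPM. Its part in the levels of the 5 genes was not tested.

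Non-obese Nnat+/-p mice were not called different from Nnat+/+ mice in any of the 5 genes, with differences of 0.46 ± 0.60 (log2, SE) for Pomc, 0.35 ± 0.31 for Cartpt, 0.20 ± 0.48 for Tbx3, -0.02 ± 0.53 for Npy and -0.81 ± 1.30 for Agrp. The intervals were wide, from -3.37 to 1.74 for Agrp and from -0.72 to 1.65 for Pomc. Agrp moved to -3.46 without replicate 40 and to -0.09 without replicate 34, Tbx3 to 0.87 without replicate 34, and Pomc to -0.20 without replicate 38. None of the 5 was called by edgeR or DESeq2, where 0.0136% of genes were called by edgeR and 278 had an unadjusted p under 0.05. The comparisons among the 3 chow groups share libraries and are not independent.

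The lists around the peptides gave few calls on chow. Of 8 receptors, 7 had a positive fold change in obese against Nnat+/+ mice (median 0.83 beside 0.02 over all genes) and 7 in obese against non-obese mice (median 0.59 beside -0.01), with none called. Npy2r had the smallest p in the first (1.37 ± 0.44) and Npy5r in the second (2.31 ± 0.76). Genes of AgRP neurons had medians of 0.32 and -0.07 in these comparisons, and genes of POMC neurons of 0.04 and -0.17. The 4 pituitary genes summed to 0.173 to 3.23 CPM in obese and 2.68 to 5.87 CPM in non-obese mice. Pmch was at 29.4 and 95.3 CPM in Nnat+/+ and 3.23 to 19.9 CPM in obese mice. The astrocyte gene Gfap was called higher in obese than in Nnat+/+ mice, by 2.84 ± 0.46.

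On HFD, none of the 5 genes was called different between genotypes. Nnat+/-p differed from Nnat+/+ mice by 0.03 ± 0.67 (log2, SE) for Agrp, 0.07 ± 0.45 for Npy, 0.25 ± 0.49 for Pomc, -0.15 ± 0.27 for Tbx3 and -0.40 ± 0.23 for Cartpt. The intervals ran from -1.29 to 1.35 for Agrp, -0.81 to 0.95 for Npy and -0.72 to 1.21 for Pomc, and from -0.68 to 0.38 for Tbx3 and -0.85 to 0.05 for Cartpt. Neither edgeR nor DESeq2 called any of the 5. In edgeR 0.0127% of genes were called, with 715 at an unadjusted p under 0.05. The directions for Agrp, Npy and Tbx3 turned with the library left out, and without replicate 46 Agrp, Npy and Pomc were at 0.72, 0.87 and 0.89. The genotype difference on HFD minus that of obese mice on chow ran from -1.03 ± 0.40 for Cartpt to -1.56 ± 0.89 for Pomc, and none passed (adjusted p = 1.00), although Cartpt and Tbx3 had an unadjusted p under 0.05.

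Among receptors, Lepr, the leptin receptor gene, had the lowest p in this comparison, with -3.50 ± 0.89 (adjusted p = 0.920), and ran from 6.12 to 250 CPM in Nnat+/+ and from 2.07 to 7.22 CPM in Nnat+/-p libraries. The 8 receptors summed to 342 CPM in Nnat+/+ replicate 44 and to at most 185 CPM in the other Nnat+/+ HFD libraries. The value of 250 CPM is thus that of replicate 44, whose labelled weight is that of a Nnat+/-p PVN library. Nnat was at 473 CPM in replicate 44 and at 4.00 CPM in that PVN library. The VMH genes summed to 2.11 to 36.7 CPM (median 9.29) in Nnat+/+ and 9.66 to 89.9 CPM (median 31.4) in Nnat+/-p libraries on HFD.

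In the PVN the same contrasts gave 1 call, of Pomc in Nnat+/+ mice. It was at 0.751, 4.46 and 109 CPM in 3 chow libraries and from 0.457 to 6.16 CPM in 6 HFD libraries, and fell by 4.18 on the log2 scale on HFD (SE 0.80, adjusted p = 0.0109), where 1.43% of genes were called. The value of 109 CPM is that of replicate 15, whose markers went against its PVN label. That library held 55.4 CPM of the VMH gene Nr5a1 and 17.1 CPM of the ARC neuron gene Ghrh, against 0.489 CPM of Sim1, without TMM factors. Without replicate 15 the difference was -0.28 (adjusted p = 0.928), and the call was lost. Between obese Nnat+/-p and Nnat+/+ PVN on chow, none of the 4 genes tested was called by the quasi-likelihood test of edgeR, Benjamini-Hochberg adjusted, or by DESeq2, with 0.0256% of genes called and 549 at an unadjusted p under 0.05. Agrp did not pass the filter on low counts. Pomc, at -3.83 (adjusted p = 0.607), turned to 0.04 without replicate 15. On HFD, genotype gave no call among the 4 genes in either tool, with 0.00569% of genes called by edgeR and 174 at an unadjusted p under 0.05.

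Ratios between the peptides within a library need no scaling between libraries. The log2 ratio of Agrp to Pomc counts averaged -3.88 ± 0.89 (SD, n = 2) in Nnat+/+ chow, -5.56 ± 1.54 (n = 4) in non-obese and -4.70 ± 1.49 (n = 4) in obese Nnat+/-p chow. On HFD it averaged -3.87 ± 0.80 (n = 6) in Nnat+/+ and -4.07 ± 0.49 (n = 4) in Nnat+/-p mice. It differed by 0.00 between diets in Nnat+/+ mice (two-sided exact permutation p = 0.964) and by -0.20 between genotypes on HFD (exact permutation p = 0.695). The SD of the ratio within a group ran from 0.49 to 1.54 on the log2 scale, and with so few libraries real differences could be missed.

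The ratio of Cartpt to Pomc averaged 0.25 ± 0.14 (log2, SD, n = 2) in Nnat+/+ chow and -0.91 ± 0.73 (n = 4) in obese mice. On HFD it averaged 0.34 ± 1.14 (n = 6) in Nnat+/+ and -0.77 ± 0.18 (n = 4) in Nnat+/-p mice. The difference between genotypes on HFD was -1.11 (two-sided exact permutation p = 0.0905, adjusted p = 0.600), and that between obese and Nnat+/+ mice on chow -1.16 (exact permutation p = 0.133, adjusted p = 0.600). Non-obese mice averaged 0.94 ± 2.43 (n = 4), from which obese mice differed by -1.85 (exact permutation p = 0.200, adjusted p = 0.600). Npy to Agrp differed most between obese and non-obese mice, by -1.85 (exact permutation p = 0.200), where 2 non-obese libraries held 0 counts of Agrp. None of the 12 ratio tests passed after Benjamini-Hochberg adjustment. The smallest p the designs allow was 0.0667 for obese against Nnat+/+ on chow and between 0.00476 and 0.0357 for the others.

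Across the 20 ARC libraries, the 5 genes rose with labelled weight. The correlation of log2 CPM with weight was r = 0.73 for Tbx3 (rho = 0.65), 0.71 for Pomc (rho = 0.62) and 0.63 for Npy (rho = 0.60), with r = 0.56 for Agrp (rho = 0.45) and 0.53 for Cartpt (rho = 0.49). Relations were held to an adjusted permutation p under 0.05. This p, adjusted over 15 relations, ran from 0.000600 (Tbx3) to 0.0177 (Cartpt) for r and from 0.00362 to 0.0478 for rho. Without replicates 43 and 34, the lightest mice, r fell to 0.60 for Tbx3, 0.46 for Pomc, 0.50 for Npy, 0.42 for Agrp and 0.48 for Cartpt.

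Weight, diet and group are tied together in these mice, so the relation was taken within each diet. In the 10 chow libraries, r was 0.80 for Pomc (rho = 0.78; permutation p = 0.00384, adjusted p = 0.0288), which was 0.85 without replicates 37 and 41. It was 0.70 for Tbx3 (adjusted p = 0.0711) and 0.65 for Npy (adjusted p = 0.0825), with 0.48 for Agrp (adjusted p = 0.226) and 0.30 for Cartpt (adjusted p = 0.464), all by permutation. In the 10 HFD libraries, which span only 37.4 to 43.9 g, r was between -0.17 (Pomc) and 0.25 (Npy), and none passed by permutation (adjusted p of 0.703 to 0.917). The pooled relation therefore held within chow for Pomc alone, by r but not by rho (adjusted p = 0.0530), and for none within HFD. With replicates 39 and 40 summed, Pomc on chow passed by rho too (permutation, adjusted p = 0.0456). With each group's mean removed it did not pass by r (r = 0.68, permutation, adjusted p = 0.167), and this r was 0.43 without replicates 43 and 37. Replicate 43, the lightest mouse, held 183 CPM of the LHA genes, beside 17.7 to 53.8 CPM in the other non-obese libraries. Its VMH genes summed to 4.41 CPM, beside 61.7 to 99.4 CPM in those libraries. The part of captured area in the relation of Pomc with weight was not tested.

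**Figure D5:**
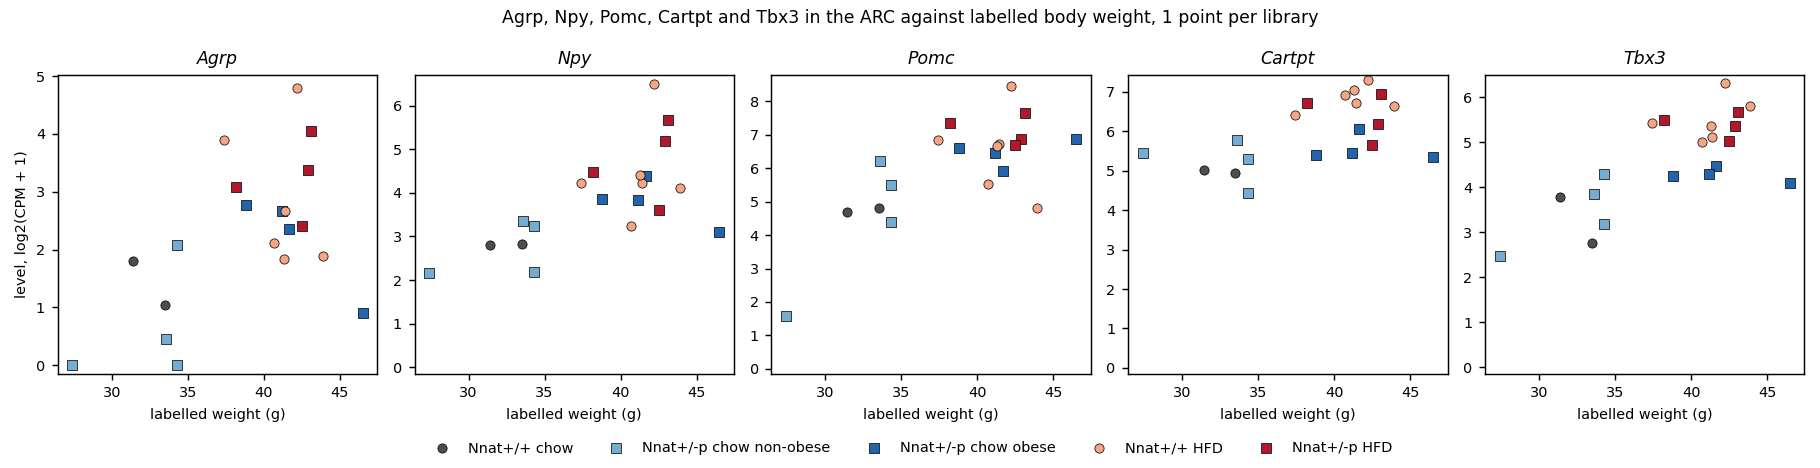
Level of each gene in the ARC, as log2(CPM + 1) on the y axis, against labelled body weight in g on the x axis, with 1 point per library and a colour and shape per group. On chow, Pomc is lowest in the lightest mouse, at 2.01 CPM and 27.4 g, and highest in the heaviest, at 115 CPM and 46.5 g, while r within the HFD points, at 37.4 to 43.9 g, is -0.17 for Pomc.

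The 5 genes also moved with one another. Over all 20 libraries the 10 pairs had r between 0.50 (Pomc with Cartpt) and 0.86 (Npy with Tbx3), and each passed by permutation after adjustment over 15 relations (adjusted p = 0.0202 and 7.5e-05 at these ends). Cartpt with Tbx3 had r = 0.85, Agrp with Pomc 0.77 and Agrp with Npy 0.77, and without the 2 libraries farthest from the median these were 0.80, 0.64 and 0.76. With each group's mean removed, only Npy with Tbx3 (r = 0.71, adjusted p = 0.0081) and Npy with Cartpt (r = 0.61, adjusted p = 0.0296) passed by permutation, and the other 8 pairs did not. By rho, Npy with Cartpt did not pass either (rho = 0.57, permutation, adjusted p = 0.0731). Within chow only Npy with Tbx3 passed, at r = 0.84 (rho = 0.88; permutation, adjusted p = 0.0288), and it was 0.74 without replicates 41 and 43. Within HFD, Agrp with Pomc (0.82), Npy with Tbx3 (0.81), Agrp with Npy (0.80) and Npy with Pomc (0.77) passed by permutation, and without replicates 46 and 50, the highest libraries, fell to 0.63, 0.49, 0.48 and 0.48. By rho, Npy with Tbx3 (rho = 0.62, permutation, adjusted p = 0.225) and Agrp with Npy (rho = 0.68, adjusted p = 0.1765) did not pass. Pairs of Cartpt with Agrp had r = -0.08 within chow and 0.21 within HFD.

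The genes whose log2 CPM followed each of the 5 most closely over the 20 ARC libraries were ranked by Pearson's r among 15752 genes, as a description. For Agrp they were Ctss (0.85), Otp (0.85), Nr5a2 (0.85), Gm12655 (0.82) and Ubxn8 (0.82). For Npy they were Serpina3n (0.90), Prune2 (0.89), Sst (0.88), Esr1 (0.87) and Tbx3 (0.86). For Pomc they were Six3 (0.90), Six6 (0.88), Gpx3 (0.85), Dbpht2 (0.84) and Arhgap36 (0.82). For Cartpt they were Asb4 (0.92), Unc5d (0.89), Irs4 (0.89), Chodl (0.88) and Scn9a (0.88), and for Tbx3 they were Serpina3n (0.95), Irs4 (0.91), Crabp1 (0.90), H2-D1 (0.86) and Npy (0.86). Tbx3 was the nearest of the 5 to both Npy and Cartpt, at ranks 5 and 19 among all genes, whereas Pomc ranked 1197 for Cartpt. All these points share the diet cohorts and the libraries' depth and captured area.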

How the data were processed

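The ARC and PVN were cut by laser from cresyl violet stained sections, and total RNA of low input was made into stranded libraries read as single ends. The deposited tables hold read counts per Ensembl gene made by the authors, as whole numbers and not normalised. The submitters' processing notes name STAR 2.5.0a and GRCm38, while the counting tool, annotation release and strand setting are not given in the sources used here. Of 53379 genes, 53274 were matched to a symbol. Of 53 libraries 49 were used: 3 were dropped because their totals fell short of 25% of their table's median, and 1 was not used because its label and its table name different nuclei.

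The counts went into edgeR 4.0.16 under R 4.3.3 (filterByExpr with a minimum count of 10, TMM factors, quasi-likelihood test). Benjamini-Hochberg adjustment was over all genes tested, and genes were called at an adjusted p under 0.25, a threshold given in the study's results. The 3 chow groups of the ARC made 1 fit, comparisons with HFD took all 5 ARC groups, and the male PVN was treated likewise. ARC and PVN were compared in 15 males, matched by labelled genotype, diet and weight, with the mouse as a block. Log2 CPM for correlations had a prior count of 2, and ratios had 0.5 added to each count. Permutation tests (Python 3.11.15, scipy 1.17.1) used all splits, or 100000 resamples, whose smallest p is 1e-05. P-values measure the spread between these libraries. The fits between groups were tested on simulated data. Of genes changed by 1 on the log2 scale, 18% to 45% were called, depending on the comparison, and of those changed by 2, 52% to 74%. Of the genes called, 14.9% to 27.6% were false. A gene not called can therefore still differ.

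The 5 genes and all gene lists were chosen with earlier results of these data known. Besides the 5, genes were named from the lists among those called, or failing any those with the smallest p, from the markers, and as the 5 with the highest r to each. Not every called marker is named, and 1 oligodendrocyte gene is not reported here. Alternatives were DESeq2 1.42.0, limma 3.58.1 (voom with sample weights), RLE size factors, every gene with a total count over 1, an adjusted p under 0.05, other sets of libraries or groups, and each library left out. Few mice limit precision, and the low counts of Agrp add counting error that no interval here separates. The shares of mice and depth in the spread were not tested. Coordinates are from the GENCODE annotation of GRCm38, and promoter windows from RefSeq (GRCm38.p6).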

Additional observations from a re-analysis of the deposited data

Results flagged for a closer look

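Dixon's 95% limit sets apart about 1 in 20 groups of normal and independent values. Skewed CPM of genes read in the same libraries are neither, so that this share is no measure of chance here. In 9 of 47 groups of 4 to 10 libraries, 1 value stood farther from the rest than this limit. In the ARC these were Nnat+/+ HFD replicate 46, with Npy at 89.5 CPM (others 8.45 to 20.2) and Pomc at 351 CPM (others 27.1 to 115), Cartpt in obese Nnat+/-p chow replicate 41 at 65.5 CPM (others 39.5 to 43.1), and Agrp in non-obese Nnat+/-p chow replicate 40 at 3.21 CPM (others 0 to 0.367). The log2 ratio of Agrp to Pomc in obese chow replicate 37 was -6.92, with the others between -4.04 and -3.83. In the PVN they were Nnat+/+ HFD replicate 24, with Cartpt at 71.3 CPM (others 7.07 to 21.2) and Pomc at 6.16 CPM (others 0.457 to 1.82), and Nnat+/+ HFD replicate 26, with Agrp at 0.948 CPM (others 0 to 0.187). In the female PVN, Nnat+/+ replicate 2 held Agrp at 28.7 CPM (others 0 to 0.366).

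Among the libraries left out for depth, an obese Nnat+/-p female PVN library, replicate 7, held Pomc at 151 CPM from 123 counts, where the Nnat+/+ female PVN libraries reached 18.9 CPM. Its markers went against its label, with Fezf1 of the VMH at 294 CPM and Avp, Oxt and Sim1 at 9.84, 11.1 and 3.69 CPM. Nnat+/+ chow ARC replicate 35 held Tbx3 at 40.5 CPM from 11 counts, where the other Nnat+/+ chow ARC libraries reached 12.8 CPM, all without TMM factors.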

How the results depend on the processing

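For comparisons between groups of mice, no paired analysis was possible because the replicate numbers, 1 to 53, are unique to a library, so groups share none. Only ARC against PVN was paired, by mouse, and with no replicate block and all male libraries the differences were 5.24 (Agrp), 3.55 (Npy), 4.69 (Pomc), 1.83 (Cartpt) and 2.32 (Tbx3), all still called, with 6236 genes called against 5862. Without PVN replicates 15 and 24 (chosen after seeing the data) and with no block they were 5.86, 4.06, 5.15, 2.08 and 2.43. Of 1530 values under other settings 1272 were rated the same, 52 lost a call or pass, 25 gained one, 117 moved and 64 turned. For counts of genes called and for levels, which have no direction, the same means a change within a set limit. Of the fold changes of the 5 genes, 745 kept direction and side of the threshold, or direction alone where no adjusted p was given. Another 40 lost a call, 24 gained one and 41 turned. Where a value changed, the cause was not tested.

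Genes called, in the order obese against Nnat+/+, non-obese against Nnat+/+ and obese against non-obese on chow, were 25, 10 and 14 without the filter beyond a total count over 1 (Pomc called in the first and the last, 1 of the 5 each), and 7, 1 and 0 with only the groups compared (1 of the 5 in the first). All 5 ARC groups in 1 fit gave 1, 1 and 0. RLE factors and an adjusted p under 0.05 each gave 0 for obese against non-obese, as did all labelled libraries, which gave 1 for non-obese against Nnat+/+, with Npy at 0.30 and Tbx3 at -0.14, and voom gave 1 there. The setting of all labelled libraries adds Nnat+/+ chow ARC replicate 35 alone, with its 271324 counts and Avp at 203 CPM. With replicates 39 and 40 summed (chosen after seeing the data) Tbx3 was at -0.0099.

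For Nnat+/+ HFD against chow, genes called were 336 by DESeq2 (4 of the 5), 5 at an adjusted p under 0.05, 499 with all labelled libraries (4 of the 5), 547 unfiltered (all 5), 700 by voom, 678 with only these groups (4 of the 5) and 44 without libraries of conflicting weight. Replicate 35, added to the chow group by the setting of all labelled libraries, held 0 counts of Agrp, Npy and Pomc. With 1 added to each count the log2 ratios were -0.066 for Agrp to Pomc and 0.012 for Npy to Agrp. For Nnat+/-p against Nnat+/+ on HFD they were 1 by DESeq2, 64 unfiltered and 1 with only these groups, and without conflicting weights Agrp was at -0.19 and Npy at -0.17.

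For Nnat+/-p HFD against obese chow, genes called were 371 by DESeq2, 18 at an adjusted p under 0.05 (0 of the 5), 44 with all labelled libraries (0 of the 5), 482 unfiltered (4 of the 5), 40 by voom and 60 without conflicting weights (0 of the 5). Against non-obese chow they were 642 by DESeq2, 43 at 0.05 (2 of the 5), 114 with all labelled libraries (3 of the 5), 670 unfiltered, 33 by voom (2 of the 5), 39 with only these groups (2 of the 5) and 145 without conflicting weights.

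In the PVN, obese against Nnat+/+ on chow gave 38 genes by DESeq2, 2 at 0.05, 43 unfiltered (1 of the 5), 2 by voom and 2 with only these groups. Nnat+/+ HFD against chow gave 535 by DESeq2, 26 at 0.05, 1134 unfiltered, with 0 of the 5 by voom and 2 of the 5 without conflicting weights. Genotype on HFD gave 8 genes unfiltered, and Cartpt turned to 0.29 by voom and 0.56 without conflicting weights. Without replicates 15 and 24 (chosen after seeing the data), Npy, Pomc, Cartpt and Tbx3 were at 1.27, 0.039, 0.012 and 0.34 for obese against Nnat+/+, diet gave 974 genes (0 of the 5, Npy at 1.07), and Cartpt was at 0.53 for genotype on HFD. ARC against PVN gave 2701 genes at 0.05.

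With each group's mean removed, r with weight was -0.155 (Agrp), 0.134 (Npy), 0.348 (Pomc), -0.124 (Cartpt) and 0.317 (Tbx3) over all ARC libraries and -0.0429 for Agrp with Cartpt. Within chow it was -0.138 (Agrp), 0.684 (Pomc) and -0.251 (Cartpt) with weight and -0.203 for Pomc with Cartpt, and within HFD 0.0296 for Cartpt with weight.

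With 1 library left out at a time, genes called ran from 2 to 5 for obese against Nnat+/+, 1 to 4 for non-obese against Nnat+/+, 0 to 1 for obese against non-obese, 3 to 253 for diet in Nnat+/+ (0 to 4 of the 5), 2 to 4 for genotype on HFD, 13 to 544 for Nnat+/-p HFD against obese (0 to 2 of the 5) and 42 to 759 against non-obese chow (1 to 5 of the 5). In the PVN they ran from 2 to 21 for obese against Nnat+/+ (0 to 1 of the 5) and 82 to 1083 for diet (0 to 2 of the 5). Genotype on HFD ran from -0.38 to 0.72 for Agrp, -0.34 to 0.87 for Npy and -0.27 to 0.060 for Tbx3, and non-obese against Nnat+/+ from -0.33 to 0.20 for Npy, -0.20 to 0.88 for Pomc and -0.26 to 0.87 for Tbx3. PVN genotype on HFD ran from -0.36 to 0.53 for Cartpt, -0.33 to 1.05 for Npy and -0.56 to 0.051 for Tbx3. PVN obese against Nnat+/+ ran from -0.92 to 0.012 for Cartpt, -2.58 to 1.27 for Npy, -4.70 to 0.039 for Pomc and -1.48 to 0.34 for Tbx3, and PVN diet from -1.14 to 0.24 for Cartpt, -2.26 to 1.57 for Npy and -1.75 to 0.0054 for Tbx3. Log2 ratios ran from -0.63 to 0.64 for Agrp to Pomc, -0.21 to 0.40 for Cartpt to Pomc and -0.62 to 0.54 for Npy to Agrp under diet in Nnat+/+ mice, and for Npy to Agrp from -0.43 to 0.082 for genotype on HFD and -0.44 to 0.72 for obese against Nnat+/+.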
